A study of Mus musculus with 14 samples.

Results

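The pre-B receptor signalling chain is the set of proteins that pass a signal from the pre-B cell receptor into the cell. It was taken here as the genes Cd79a, Cd79b, Syk, Blk, Lyn, Blnk, Btk and Plcg2. A gene was counted as measured when the platform annotation gave its symbol, and no other, to a probe set of the deposited table. Of the 8 genes, 7 were found, with 10 probe sets among the 34945 that carried 1 gene symbol. Syk had 4 of these and each of the other genes had 1. No probe set carried the symbol Lyn in the annotation used, and Lyn was not analysed here. Where a gene had several probe sets, the one with the highest mean over all arrays led, and the 7 genes are described among 18193 genes chosen in the same way.

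The series profiled early B lineage cells of mouse bone marrow on 14 Affymetrix arrays in 6 groups. Pax5KO engrafted cells (3 arrays) and WT engrafted cells (3 arrays) descended from day 15 fetal liver of embryos with a λ5 reporter, Pax5 knockout in the first group and wild type in the second. They had been put into sublethally irradiated mice and were sorted as B220+ reporter+ cells 4 weeks later from the marrow. The remaining 4 groups hold 2 arrays each, from marrow of untransplanted wild type mice: common lymphoid progenitors (CLP) without and with the surface protein Ly6D (Ly6D- CLP and Ly6D+ CLP), ProB cells, and PreB cells, whose arrays keep their title numbers 2 and 3. All mice were C57Bl6 and 8 to 12 weeks old. The labels call the arrays of a group biological replicates and do not say how many mice each array pooled, which gates defined the groups without transplant, or how many host cells remained in the sorted samples.

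The pre-B receptor forms when a new immunoglobulin μ heavy chain pairs with the surrogate light chain, made of λ5 (Igll1) and VpreB. Its own cytoplasmic parts are short, and the signal runs through the Igα and Igβ chains, encoded by Cd79a and Cd79b. Src family kinases such as Blk phosphorylate their tyrosine motifs, Syk docks there, and Syk phosphorylates the adaptor Blnk (SLP-65). Blnk brings Btk to phospholipase Cγ2 (Plcg2), which opens the calcium, PKC and RAS branches. In mouse and human, loss of members of this chain holds B cell development at the pro-B to pre-B transition.

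Facts of the arrays that bear on these genes come first. The deposited values are log2 signals between 2.32 and 16.1, and a gene is at the floor in a group where no array exceeded the lowest value of the table by more than 0.5. Replicate arrays correlated at Pearson r between 0.955 and 0.992 across genes, which are not independent replicates. The brighter of 2 Pax5 probe sets read 7.95, 7.92 and 7.57 on the arrays labelled Pax5KO engrafted and 6.76, 6.18 and 6.60 on the WT engrafted arrays. The dimmer read 2.32, 2.32 and 2.34 on the arrays labelled Pax5KO engrafted and 3.42, 3.38 and 2.43 on the WT engrafted arrays. The brighter one was not called between them (1.30, limma adjusted p = 0.367). Which part of the gene was deleted is not stated in the labels, so neither probe set tests the genotype, and Pax5KO below means the arrays so labelled. All 8 measured B progenitor markers were above the floor in every group. Of 6 T cell markers, Cd3e, Cd3d, Cd3g and Cd8a were at the floor in every group, Cd4 was above it in WT engrafted cells alone (highest array 3.08), and Thy1 was above it in all groups (means 3.80 to 5.18). Among the 6 groups the PreB arrays had the highest summed levels of granulocyte and NK cell markers and the highest actin difference. Of 10 granulocyte and monocyte markers 8 were above the floor in PreB, with a summed log2 level of 13.32 to 14.06. In ProB it was 5 markers and 6.96 to 7.10. The count did not set PreB apart. It was also 8 in Ly6D- CLP, where the sum was 12.61 to 13.04, and it was 9 in WT engrafted cells. Of 5 NK cell markers 4 were above the floor in PreB (summed log2 level 10.83 to 11.38), against 1 in ProB (4.73 to 4.99). The 3' minus 5' difference of the actin control probe sets, a sign of RNA quality, was 6.71 to 7.27 in PreB and 2.73 to 3.67 in ProB. It was 3.14 to 4.57 in Pax5KO and 2.51 to 3.47 in WT engrafted cells. By the same difference of Gapdh the PreB arrays (4.35 to 4.88) did not stand apart, and the highest values were 5.79 on Pax5KO array 3 and 5.44 on WT array 3. Xist was high on the 3 Pax5KO arrays, WT array 3 and both ProB arrays, and low on the others. A term for it is among the alternatives of the Pax5KO against WT comparison. With that term the contrast becomes the Pax5KO mean minus WT array 3, so it rests on 1 WT array.

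WT engrafted cells had the highest group mean of 6 of the 7 genes, and Pax5KO cells that of Plcg2. The lowest mean lay in Ly6D- CLP for 4 genes (Cd79a, Cd79b, Blk and Blnk), in PreB for Btk and Plcg2, and in ProB for Syk. The members did not move as a block. Cd79a, Cd79b, Syk, Blk and Btk were lower on every Pax5KO array than on any WT engrafted array, Blnk overlapped between the groups, and Plcg2 was higher on every Pax5KO array. Between Pax5KO and WT engrafted cells 4 of the 7 genes were called by limma at an adjusted p under 0.05, 1 higher and 3 lower, where 5.94% of all genes were called (3.64% higher and 2.29% lower). With a term for high Xist the calls of all genes were 339 higher and 527 lower, in place of 663 higher and 417 lower. The share of all genes called includes dim genes. Among the 9344 genes more than 2 log2 units above the lowest value on at least 2 arrays, 1424 were called. Of the 7 members 3 were called in that fit. The arrays of the groups did not overlap for 6 of the 7, where the same held for 19.6% of all genes. The median difference of the 7 genes was -1.26 on the log2 scale. Over all genes it was 0.00, but array medians of 2.41 to 2.52 lie near the lowest value of 2.32. That 0.00 is therefore no contrast with expressed genes. In each comparison a group held 2 or 3 arrays, and a difference in sorted bulk samples cannot tell fewer cells of a type from less RNA per cell.

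**Figure D1:**
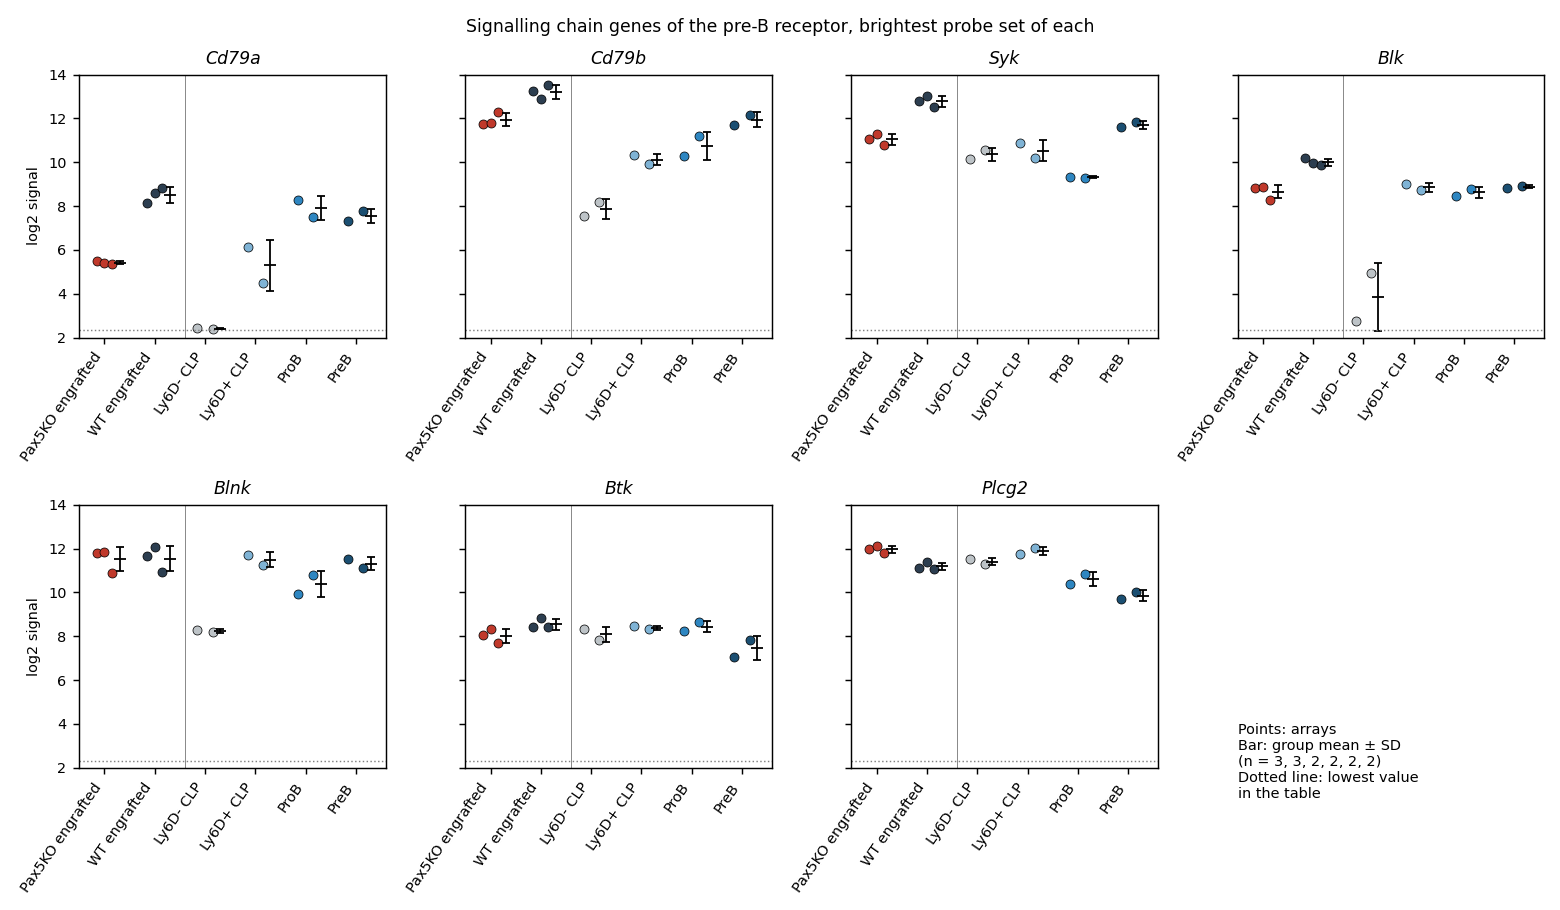
Log2 signal of the 7 measured genes on each of the 14 arrays (points), with the group mean and SD beside them; the horizontal axis gives the 6 groups and the dotted line the lowest value of the table. Cd79a lies at that line in Ly6D- CLP and between 5.36 and 5.48 in Pax5KO engrafted cells, against 8.13 to 8.84 in WT engrafted cells.

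**Figure D2:**
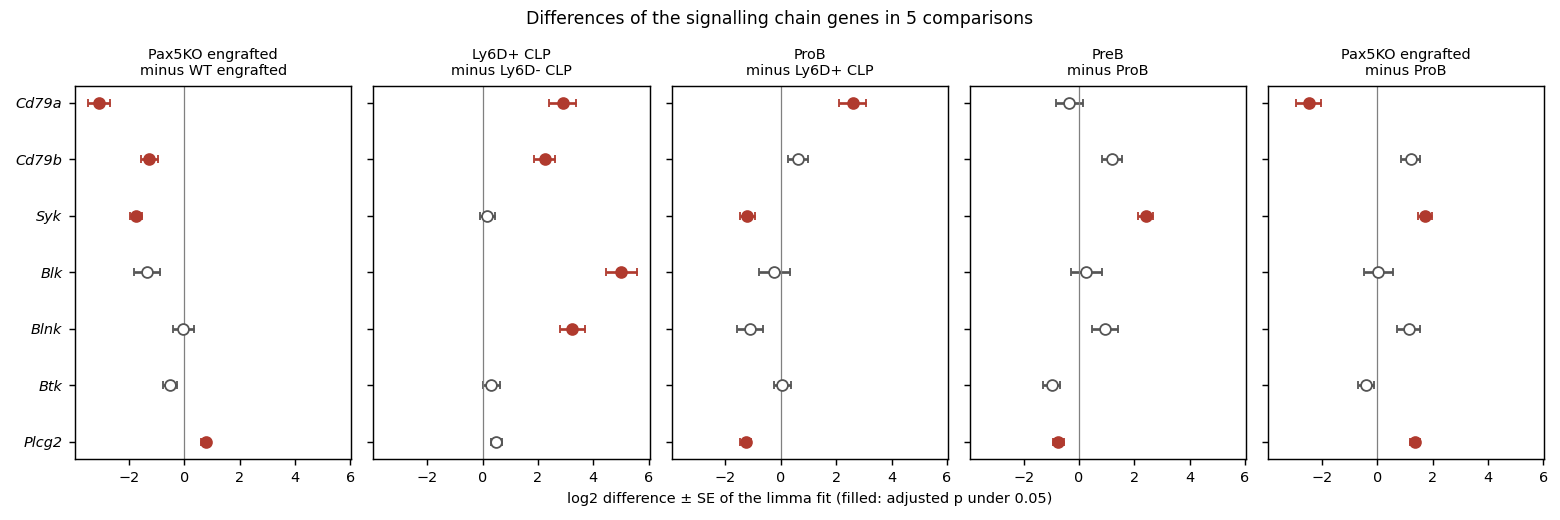
Log2 difference of each gene in 5 comparisons, first named group minus second, with the SE of the limma fit (bars); filled points have an adjusted p under 0.05. Cd79a, Cd79b and Syk lie left of 0 and Plcg2 right of 0 among the called genes of the Pax5KO against WT panel, while the called genes of the Ly6D+ against Ly6D- panel all lie right of 0.

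Cd79a (chr7:24897497-24901858, GRCm38.p6) encodes Igα, a signalling chain of the pre-B and B cell receptors and a classic Pax5 and EBF target in mouse. It read 5.48, 5.40 and 5.36 in Pax5KO cells, against 8.13, 8.57 and 8.84 in WT engrafted cells. The lowest WT array lay above the highest Pax5KO array, and the Pax5KO mean was 5.42 ± 0.06 (SD, n = 3). Cd79a fell by 3.10 on the log2 scale in Pax5KO cells (SE 0.40, limma adjusted p = 0.00233), a signal 8.56 times lower. It was called in all 17 alternative settings of this comparison, with differences between -3.42 and -2.91. Along the untransplanted stages it read 2.42 and 2.39 on the Ly6D- CLP arrays, 6.13 and 4.47 on those of Ly6D+ CLP, then 8.29 and 7.52 in ProB and 7.34 and 7.76 in PreB. Ly6D- CLP was at the floor, the Ly6D+ CLP arrays were far apart, and ProB and PreB overlapped. Cd79a rose by at least 2.90 in Ly6D+ over Ly6D- CLP (SE 0.49, limma adjusted p = 0.0252), the bound coming from the floor. It rose by a further 2.60 in ProB over Ly6D+ CLP (SE 0.49, limma adjusted p = 0.0148), a call that ended without ProB array 1 (2.22, limma adjusted p = 0.0527). PreB differed from ProB by -0.35 (SE 0.49) and was not called. The Pax5KO mean stood next to that of Ly6D+ CLP (5.30 ± 1.17, SD, n = 2) in the order of levels, and the arrays of these groups overlapped.

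The promoter of Cd79a is shown because this gene had the widest called difference between the engrafted groups among the 7. RefSeq (GRCm38.p6) gave windows of 300 bases for 5 of the genes, 250 before and 50 after the gene start, and the 250 bases before the start are printed 5' to 3' on the gene's strand. Capitals mark CAGGTG, an E box of the kind bound by E2A, and GGAAGT, an ETS core, each searched on both strands; the EBF core palindrome CCCNNGGG was searched as well. The window below is chr7:24897247-24897496 on the plus strand.
Cd79a: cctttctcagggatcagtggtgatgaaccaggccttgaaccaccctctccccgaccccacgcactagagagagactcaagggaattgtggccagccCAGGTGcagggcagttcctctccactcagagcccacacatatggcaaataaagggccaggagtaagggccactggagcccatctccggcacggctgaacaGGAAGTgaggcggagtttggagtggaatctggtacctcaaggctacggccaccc
CAGGTG began 154 bases before the start and GGAAGT 54 bases before it, without overlap. CAGGTG occurred in 20.2% of the 32851 windows of this length, GGAAGT in 23.8% and CCCNNGGG in 13.7%. CCCNNGGG was in none of the members' windows. These letters are a strict form, and variant EBF sites, other ETS forms and Pax5 sites were not searched. Their absence therefore does not show that a window lacks an EBF site. A match of letters is a description and was not tested for binding.

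Cd79b encodes Igβ, the partner of Igα (chr11:106311341-106314562). It read 11.76, 11.80 and 12.27 in Pax5KO cells and 13.23, 12.88 and 13.50 in WT engrafted cells. The groups did not overlap, and the Pax5KO arrays stayed far above the floor. Cd79b fell by 1.26 in Pax5KO cells (SE 0.30, limma adjusted p = 0.0483), a signal 2.40 times lower. The call was held in 5 of 17 alternatives and ended when any 1 of the 6 engrafted arrays was left out, at limma adjusted p from 0.0566 to 0.167. With the replicate number as a block its adjusted p was 0.0651. At the stages it read 7.56 and 8.20 on the Ly6D- CLP arrays, 10.31 and 9.93 on those of Ly6D+ CLP, then 10.28 and 11.21 in ProB and 11.69 and 12.17 in PreB. The order of means followed the stages, with overlap between Ly6D+ CLP and ProB alone among neighbouring stages. Cd79b rose by 2.24 in Ly6D+ over Ly6D- CLP (SE 0.37, limma adjusted p = 0.0242), and the adjusted p was 0.0502 without Ly6D- CLP array 1. The later steps were not called, with 0.62 in ProB over Ly6D+ CLP and 1.19 in PreB over ProB (limma adjusted p = 0.0829). The PreB difference was called with the replicate block (limma adjusted p = 0.0466) and without ProB array 2 (1.65, limma adjusted p = 0.0436).

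Igα and Igβ join as a pair in the receptor, so the log2 difference Cd79a minus Cd79b was followed on each array, a measure chosen after the values had been seen. It was -6.53 ± 0.34 in Pax5KO and -4.69 ± 0.40 in WT engrafted cells (SD, n = 3 each). The change was -1.84 and is given as a description, with no test. The Pax5KO arrays ran from -6.91 to -6.28 and the WT arrays from -5.10 to -4.31, without overlap. This is a ratio within an array and shows that Cd79a and Cd79b differed by unequal amounts, not that either was level.

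Syk (chr13:52582610-52648792) encodes the tyrosine kinase that docks on phosphorylated Igα and Igβ, and it is the member read by 4 probe sets. The brightest, 1418261_at, read 11.07, 11.28 and 10.77 in Pax5KO cells, against 12.78, 13.04 and 12.52 in WT engrafted cells. The second, 1418262_at, read 9.26, 9.31 and 9.32 in Pax5KO cells, against 10.68, 10.61 and 10.47 in WT engrafted cells. In both the groups were apart. By the brightest probe set Syk fell by 1.74 in Pax5KO cells (SE 0.22, limma adjusted p = 0.00206), a signal 3.34 times lower, and was called in all 17 alternatives. The second differed by -1.29 (SE 0.15, limma adjusted p = 0.00225 over all probe sets). The remaining probe sets, 1457239_at and 1425797_a_at, differed by -2.44 and -1.42 and were not called. Of these, 1457239_at differed widely between replicates, with 2.37 and 9.24 on the Ly6D- CLP arrays.

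Through the stages the brightest Syk probe set read 10.15 and 10.56 on the Ly6D- CLP arrays, 10.86 and 10.19 on those of Ly6D+ CLP, then 9.34 and 9.28 in ProB and 11.59 and 11.85 in PreB. ProB was lower than all other groups, and PreB was higher than all but WT engrafted cells. Ly6D+ and Ly6D- CLP overlapped and differed by 0.17 (SE 0.27). Syk rose by 2.41 in PreB over ProB (SE 0.27, limma adjusted p = 0.000897), a signal 5.30 times higher, called in all 13 alternatives; the second probe set rose by 1.78 (SE 0.19, limma adjusted p = 0.000823 over all probe sets). The fall in ProB against Ly6D+ CLP rested on the brightest probe set. It was -1.22 there (SE 0.27, limma adjusted p = 0.0290) and 0.18 on the second, whose arrays read 8.43 and 8.36 in ProB and 8.48 and 7.95 in Ly6D+ CLP. With the mean of the 4 probe sets it was -0.41 (limma adjusted p = 0.783). The call also ended with quantile normalization (-1.03, limma adjusted p = 0.0705) and without Ly6D+ CLP array 1 (-0.88, limma adjusted p = 0.102), ProB array 1 (limma adjusted p = 0.0658) or ProB array 2 (limma adjusted p = 0.115). The granulocyte, NK and actin values of the PreB arrays given above move with the PreB rise, and their part in it was not tested.

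**Figure D3:**
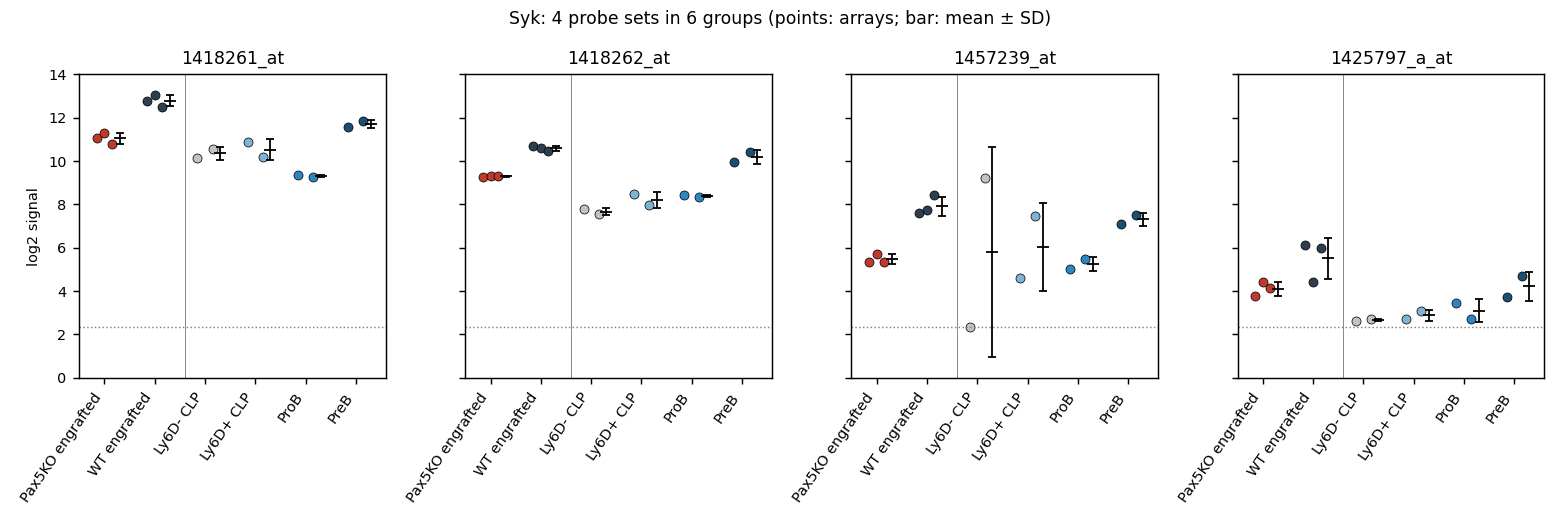
Log2 signal of the 4 Syk probe sets on each array (points) with group means and SD, by group; the dotted line is the lowest value of the table. The probe sets 1418261_at and 1418262_at read lower in Pax5KO than in WT engrafted cells and higher in PreB than in ProB, and of this pair the first alone reads lower in ProB than in Ly6D+ CLP.

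Blk (chr14:63372837-63417187) encodes a Src family kinase of the B lineage that phosphorylates the Igα and Igβ motifs. It read 8.81, 8.87 and 8.30 in Pax5KO cells, against 10.19, 9.95 and 9.88 in WT engrafted cells. The groups did not overlap, but the difference of -1.35 (SE 0.46) did not pass over all genes (limma adjusted p = 0.172). A fit restricted to the 6 engrafted arrays called it (limma adjusted p = 0.0459), as did array weights (-1.26, limma adjusted p = 0.00354). The Ly6D- CLP arrays read 2.75 and 4.94 (SD 1.55), while the SD of the other groups lay between 0.07 and 0.31. Ly6D+ CLP read 8.999 and 8.72, ProB 8.45 and 8.78, and PreB 8.83 and 8.93. ProB overlapped with Ly6D+ CLP, and PreB lay just above ProB. Blk rose by 5.02 in Ly6D+ over Ly6D- CLP (SE 0.57, limma adjusted p = 0.00303). The size rested on Ly6D- CLP, whose array 1 lay within 0.5 of the lowest value of the table: it was 3.92 without Ly6D- CLP array 1 and 6.11 without array 2, called in both. It differed by -0.24 in ProB over Ly6D+ CLP and by 0.26 in PreB over ProB, neither called.

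Blnk (chr19:40928927-40994221 on the minus strand) encodes the adaptor SLP-65, on which Btk and Plcγ2 meet. It read 11.79, 11.86 and 10.89 in Pax5KO cells and 11.66, 12.06 and 10.93 in WT engrafted cells. Array 2 was the highest and array 3 the lowest in both groups, and the groups overlapped. The difference was -0.03 (SE 0.38, limma adjusted p = 1). In the untransplanted cells it read 8.31 and 8.18 on the Ly6D- CLP arrays, 11.73 and 11.26 on those of Ly6D+ CLP, then 9.95 and 10.80 in ProB and 11.52 and 11.11 in PreB. ProB lay between Ly6D- CLP and the remaining groups without overlap. Blnk rose by 3.25 in Ly6D+ over Ly6D- CLP (SE 0.46, limma adjusted p = 0.0101), a signal 9.51 times higher. It differed by -1.12 in ProB over Ly6D+ CLP (limma adjusted p = 0.241) and by 0.94 in PreB over ProB, neither called.

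The promoter of Blnk is set beside that of Cd79a because both genes rose in Ly6D+ over Ly6D- CLP and, of the pair, only Cd79a was called between the engrafted groups. The window is chr19:40994222-40994471 (GRCm38.p6, RefSeq), printed 5' to 3' on the minus strand with the same capitals.
Blnk: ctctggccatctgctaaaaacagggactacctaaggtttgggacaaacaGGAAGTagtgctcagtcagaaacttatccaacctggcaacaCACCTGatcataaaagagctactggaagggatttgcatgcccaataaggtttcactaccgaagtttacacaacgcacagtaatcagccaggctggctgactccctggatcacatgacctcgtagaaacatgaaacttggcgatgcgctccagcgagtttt
It held GGAAGT from 201 bases before the start. CACCTG, which is CAGGTG read on the opposite strand, began 160 bases before it. GGAAGT on the opposite strand also lay at the start itself, outside the printed bases. Of the other windows, those of Plcg2 and Syk also held CAGGTG on either strand, and that of Btk held none of the 3 motifs.

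Btk (chrX:134542334-134583628) encodes the Tec family kinase that activates Plcγ2. It varied least of the 7 genes, with group means within 1.09 of each other. It read 8.05, 8.33 and 7.71 in Pax5KO cells and 8.42, 8.83 and 8.40 in WT engrafted cells, apart by little, and the difference of -0.52 (SE 0.25) was not called (limma adjusted p = 0.397). It read 8.32 and 7.85 on the Ly6D- CLP arrays, 8.46 and 8.33 on those of Ly6D+ CLP, then 8.26 and 8.63 in ProB and 7.07 and 7.85 in PreB. PreB lay below ProB on both arrays, by -0.99 (SE 0.31, limma adjusted p = 0.0806). This difference was called with the replicate block (limma adjusted p = 0.0455), with equal array medians (-1.11, limma adjusted p = 0.0328), with quantile normalization (-1.08, limma adjusted p = 0.0298) and without PreB array 3 (-1.38, limma adjusted p = 0.0362).

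Plcg2 (chr8:117498275-117635142) encodes the phospholipase at the end of the chain, which makes the messengers for calcium release and PKC. It read 11.97, 12.13 and 11.80 in Pax5KO cells, against 11.13, 11.39 and 11.06 in WT engrafted cells, without overlap. Plcg2 rose by 0.77 in Pax5KO cells (SE 0.16, limma adjusted p = 0.0264), a signal 1.71 times higher. The call was held in 9 of 17 alternatives. Omitting Pax5KO array 1 (limma adjusted p = 0.0901), Pax5KO array 2 (0.103), WT array 1 (0.0997) or WT array 3 (0.0813) ended it. In the stages it read 11.52 and 11.28 on the Ly6D- CLP arrays, 11.75 and 12.03 on those of Ly6D+ CLP, then 10.39 and 10.84 in ProB and 9.68 and 10.03 in PreB. Neighbouring stages were apart at every step. Plcg2 fell by 1.28 in ProB against Ly6D+ CLP (SE 0.20, limma adjusted p = 0.00649) and fell by 0.76 in PreB against ProB (SE 0.20, limma adjusted p = 0.0438). The PreB call ended without PreB array 2 (-0.58, limma adjusted p = 0.224), PreB array 3 (limma adjusted p = 0.0532) or ProB array 2 (-0.53, limma adjusted p = 0.244). The difference of 0.49 in Ly6D+ over Ly6D- CLP was not called.

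Counted over the stages, the entry into the Ly6D+ compartment moved the most members in 1 direction. In Ly6D+ over Ly6D- CLP 4 of the 7 genes were called and all 4 were higher (Blk, Blnk, Cd79a and Cd79b), where 1.45% of all genes were called, 0.813% higher and 0.638% lower. The arrays were apart for 6 of the 7, all higher, against 22.4% of all genes, and the median difference was 2.24. In ProB over Ly6D+ CLP 3 were called, Cd79a higher and Plcg2 and Syk lower, where 7.29% of all genes were called (1.93% higher and 5.36% lower). That lean of all genes, 351 higher and 976 lower, was 628 and 783 with equal array medians, 496 and 755 with quantile normalization, and 1338 and 791 without ProB array 1. The arrays were apart for 4 of the 7 in that comparison, against 33.8% of all genes. In PreB over ProB 2 were called, Syk higher and Plcg2 lower, where 11.5% of all genes were called (6.35% higher and 5.19% lower). Without dim genes this comparison called 1 of the 7, Syk, and 2507 of 9344 genes, so members were not called more often than other genes there. The arrays were apart for 6 of the 7, against 41.8% of all genes. Granulocyte and monocyte markers were present in Ly6D- CLP, 8 of 10 above the floor with a summed log2 level of 12.61 to 13.04, against 5 of 10 and 11.00 to 11.42 in Ly6D+ CLP. For 4 of the 8 only 1 of the 2 Ly6D- CLP arrays was above the floor: S100a8 read 2.39 and 10.59 on these arrays, and S100a9, Ngp and Camp were split in the same way. The part of these markers in the Ly6D step was not tested.

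Pax5KO engrafted cells were then set against ProB cells, from which they differ in transplantation, fetal origin and sort as well as genotype. These influences cannot be told apart. The comparison shares the Pax5KO arrays with the previous one, so the values stand side by side. Syk was higher in Pax5KO cells than in ProB by 1.73 (SE 0.24, limma adjusted p = 0.00486), and the 2 brightest probe sets were both called; with the mean of the 4 probe sets it was 0.97 (limma adjusted p = 0.304). Plcg2 was higher by 1.36 (SE 0.18, limma adjusted p = 0.00385). Cd79a was lower, with a difference of -2.49 (SE 0.45, limma adjusted p = 0.0149; 0.0569 without ProB array 1). Cd79b (1.20, limma adjusted p = 0.0942), Blnk (1.14), Btk (-0.42) and Blk (0.04) were not called, and Cd79b was called without ProB array 2 (1.66, limma adjusted p = 0.0482). In all 3 of the 7 genes were called, 2 higher and 1 lower, where 5.24% of all genes were called (4.22% higher and 1.02% lower); 5 of the 7 had arrays apart, against 27.7% of all genes. The lean of all genes to higher calls, 768 higher and 185 lower, depended on the scaling, with 521 and 407 under equal array medians and 443 and 258 under quantile normalization, and was 652 and 1231 without ProB array 1. Cd79a was lower in Pax5KO cells against either group, and Plcg2 higher against either, while Syk lay below WT engrafted cells and above ProB.

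Likeness of pattern was measured by Pearson r over the 14 arrays among 4266 genes whose group means spanned at least 2 log2 units; the arrays share their groups, so these are descriptions. Cd79a was most like Vpreb3 (r = 0.957), a partner of the surrogate light chain, followed by Edaradd (0.950) and Polh (0.946). Blk was most like Pou2af1 (0.946), the B cell coactivator OBF-1, followed by Prkcb (0.934), the PKC isoform of B cell receptor signalling, and Pde2a (0.929). Cd79b was closest to Pkig (0.951), Fam53b (0.946) and Dgka (0.939), and Blnk to Gpat3 (0.939), Fryl (0.926) and Cyth1 (0.916). Syk was closest to Cnp (0.974), Tmem131l (0.939) and Dgkd (0.902), and Plcg2 to Irgm2 (0.966), Dync1h1 (0.954) and Pelo (0.947). Btk had the weakest best match, Lgals9 (0.884), before Reep4 (0.842) and Ccnd3 (0.822). Among the members themselves the highest r were Blnk with Blk (0.89), Cd79b with Blk (0.88), Cd79a with Blk (0.83) and Cd79a with Cd79b (0.81). The lowest r between members was that of Plcg2 with Cd79a (-0.50), and the highest r of Btk with another member was 0.45, with Plcg2.

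The wider pathway around the chain was described with lists of its other parts, by role. Of 109 listed genes 94 were measured. Between Pax5KO and WT engrafted cells 27 of the 94 were called, 6 higher and 21 lower, against 5.94% of all genes, with a median difference of -0.52. The inhibitors of receptor signalling held the most calls: of 16 measured, 8 were lower and 2 higher in Pax5KO cells. Cd72, an inhibitory receptor that recruits the phosphatase SHP-1, averaged 3.02 ± 0.24 in Pax5KO and 12.2 ± 0.43 in WT engrafted cells (SD, n = 3 each) and fell by 9.17 (SE 0.35, limma adjusted p = 1.92e-06). Btla, a co-inhibitory receptor, fell by 6.75 and Siglecg, a sialic acid receptor that dampens calcium signals, fell by 6.66. Fcgr2b, the inhibitory IgG receptor, fell by 5.73, and Cd22, another inhibitory receptor, fell by 4.43. Dok3 (-2.09), Pirb (-1.74, with Pax5KO at the floor) and Ptpn6 (-1.27), which encodes SHP-1, were called lower too. The adaptor Lax1 (2.66) and the phosphatase Ptpn22 (2.33) rose.

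**Figure D4:**
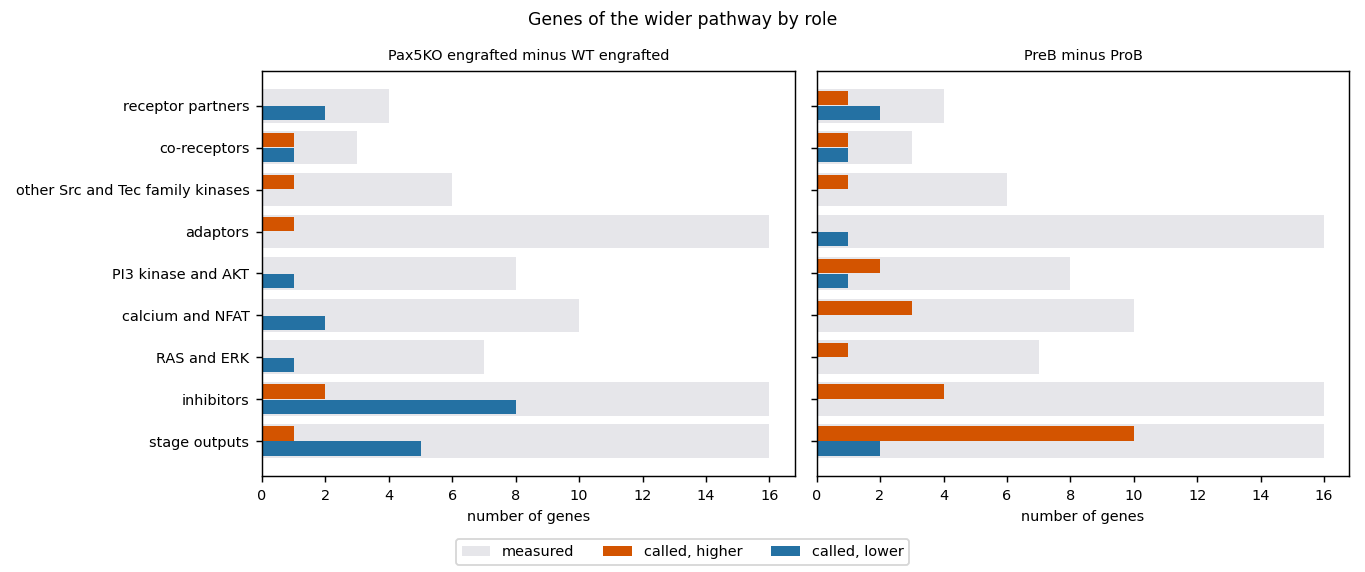
Number of genes of the role lists shown (vertical axis) that were measured (grey), called higher (orange) and called lower (blue), for Pax5KO minus WT engrafted cells (left) and PreB minus ProB (right). Inhibitors hold 8 lower and 2 higher of 16 on the left, and stage outputs 10 higher and 2 lower of 16 on the right.

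Of 4 receptor partners, Vpreb3 (-3.47, SE 0.24, limma adjusted p = 7.75e-05) and Ighm (-1.95, SE 0.25), the μ heavy chain gene, fell in Pax5KO cells. Of the 11 Ighm probe sets 2 were called, and Igll1 and Vpreb1 were not called. Igll1 encodes λ5, and both engrafted groups were sorted on a λ5 reporter. Its levels here are therefore tied to the sort and do not test an effect of genotype. Of 3 co-receptor genes, Pik3ap1, which encodes the adaptor BCAP, fell by 3.29, and Cd81, a tetraspanin, rose by 0.94 (limma adjusted p = 0.0484). Of 7 RAS and ERK genes, Rasgrp1, an exchange factor that couples diacylglycerol to RAS, fell to the floor in Pax5KO cells by 1 of its 4 probe sets, a difference of -6.64 or more in size (SE 0.46, limma adjusted p = 7.24e-05). Of 16 adaptors, Lat, an adaptor of T cell receptor signalling, rose by 2.75 (SE 0.48, limma adjusted p = 0.0111). Of 10 calcium and NFAT genes the channels Itpr2 (-1.49) and Itpr3 (-1.06) fell, and of 8 PI3 kinase genes Pik3ca (-1.35). Nfkbia (-1.83), which encodes the NF-kB inhibitor IκBα, fell as well. Of 6 other Src and Tec family kinases, Src rose by at least 1.15, with WT engrafted cells at the floor. Among 16 genes read as outputs of pre-B signalling, Cd2 and Ikzf3 were at the floor in Pax5KO cells and fell, with differences of at least -6.43 and -5.83 in size. Irf4 (-4.14), Bach2 (-3.42) and Irf8 (-1.67) fell, and Myc rose by 2.92 (SE 0.36, limma adjusted p = 0.00177). Of 8 T cell counterparts of the chain, Cd247, the ζ chain, rose by 2.88 (SE 0.30, limma adjusted p = 0.000706) and Lat rose. Zap70 and Lcp2 were not called. Such levels also occurred in untransplanted wild type cells. Cd247 averaged 5.72 in Pax5KO cells, 5.74 in Ly6D- CLP and 6.72 in Ly6D+ CLP, but 2.79 in ProB and 3.35 in PreB. Lat averaged 6.47 in Pax5KO cells, 7.64 in Ly6D- CLP, 6.63 in Ly6D+ CLP and 6.45 in ProB, but 3.77 in PreB. Of 12 B lineage regulators, Spib (-4.94) and Pou2af1 (-1.10) fell and Ebf1 (-1.14, limma adjusted p = 0.195) was not called.

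The calls of 8 of these 27 genes depended on single arrays. That of Lat ended without Pax5KO array 1 (limma adjusted p = 0.0514) and that of Dok3 without WT array 1 (limma adjusted p = 0.0528). Those of Cd81, Pik3ca, Itpr2 and Ptpn22 ended without any 1 of the engrafted arrays other than WT array 3, at limma adjusted p from 0.0537 to 0.179. That of Lax1 ended without array 1 or 2 of either group (0.0508 to 0.0679), and that of Ptpn6 without any 1 of the 6 (0.0584 to 0.118). Mature B markers moved with these falls. In Pax5KO cells 4 of 6 were above the floor, with a summed log2 level of 6.41 to 8.08. In WT engrafted cells 6 of 6 were above it, with 11.89 to 12.87. Cd22, named above among the falls, is itself on this marker list, so its fall is counted in both. Mast cell and basophil markers were lower as well, 3 of 5 above the floor with a sum of 6.41 to 7.33 in Pax5KO cells, against 5 of 5 and 7.77 to 9.26 in WT engrafted cells, and 2 of the 5 were called. Lymphoid progenitor markers, 5 of 6 above the floor in both groups, summed to 12.33 to 12.91 in Pax5KO and 10.92 to 11.79 in WT engrafted cells. Plasma cell markers summed to 12.34 to 13.04 in Pax5KO and 10.86 to 11.29 in WT engrafted cells. Of these 5 markers 1 was called higher and 1 lower. All 7 plasmacytoid dendritic markers had higher means in Pax5KO cells, with 1 called, and their sums overlapped between the groups. The part of these markers in the differences was not tested.

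**Figure D5:**
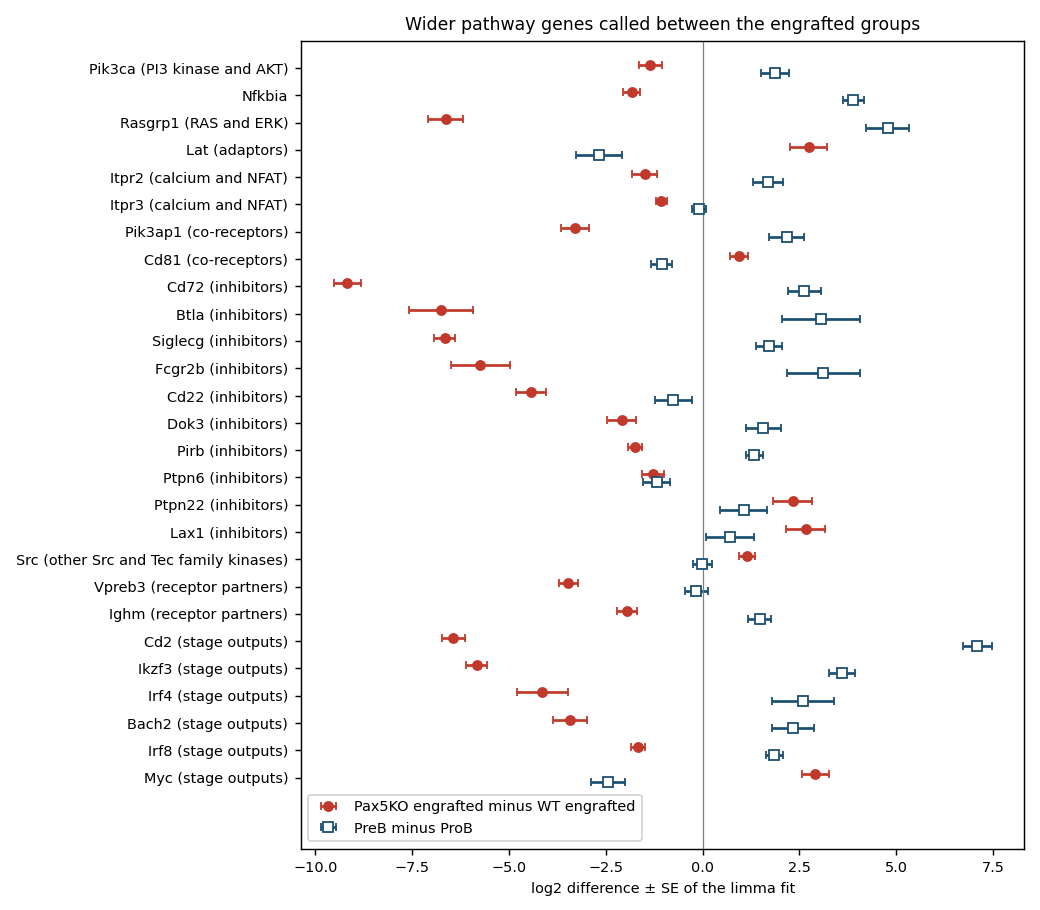
Log2 differences with SE of the 27 wider pathway genes called between the engrafted groups, for Pax5KO minus WT engrafted cells (filled circles) and PreB minus ProB (open squares); each row is a gene, with its role where a list is shown. Cd72, Btla, Siglecg, Rasgrp1 and Cd2 lie farthest left for Pax5KO minus WT, at -9.17 to -6.43, and Cd2 lies farthest right for PreB minus ProB, at 7.09.

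The wider pathway was then followed along the stages. In Ly6D+ over Ly6D- CLP 10 of 94 genes were called, 8 higher and 2 lower, where 1.45% of all genes were called. The surrogate light chain genes Vpreb1 (8.24, SE 0.48) and Igll1 (8.07, SE 0.44) rose most, with Prkcb (5.03), Rag1 (4.15), Foxo1 (3.75) and Vpreb3 (3.29), while the kinase Yes1 (-1.85) and the receptor Pirb (-1.78) fell to the floor, so their differences are bounds. The Rag1 call ended without any 1 of the 4 CLP arrays (limma adjusted p from 0.0524 to 0.0988). Of 12 B lineage regulators 4 rose at this step: Pou2af1 (at least 7.92), Ebf1 (5.64), Foxo1 and Spib (3.28). In ProB over Ly6D+ CLP 15 were called, 5 higher and 10 lower, where 7.29% of all genes were called. Without dim genes 17 of 89 pathway genes and 1681 of 9344 genes were called. Pathway genes were therefore called about as often as the other genes kept there. With equal array medians the split was 10 higher and 10 lower. Cd22 (5.71), Irf4 (4.50), Ikzf3 (at least 4.32), Bcl6 (3.26) and Vpreb3 (2.01) rose. Rag1 (-3.57), Myc (-3.47), Dok2 (-3.44), the PI3 kinase subunits Pik3r5 (-2.75) and Pik3cd (-2.61, 1 of 6 probe sets) and Lax1 (-2.53) fell most. The calls of Rag1 (0.0531 to 0.142) and Lax1 (0.0882 to 0.171) ended without any 1 of the 4 arrays, and that of Irf4 without ProB array 2 (limma adjusted p = 0.0613).

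In PreB over ProB 35 of the 94 genes were called, 28 higher and 7 lower, where 11.5% of all genes were called. Rel (4.81), a NF-kB subunit, Nfkbia (3.89), Malt1 (2.74), Bcl10 (2.53) and Prkcb (1.82) rose. Of 16 stage outputs 10 rose, led by Cd2 (at least 7.09), Cxcr4 (4.23), a chemokine receptor, and Il2ra (at least 4.12), the CD25 chain that marks mouse pre-B cells, and Ccnd3 (-4.25) and Myc (-2.44) fell. Rasgrp1 rose by 4.78. The surrogate light chain genes Igll1 (-4.49) and Vpreb1 (-3.09) fell, as did Lat (-2.67) and Akt1 (-1.11). Ighm read 1.47 higher by its brightest probe set, but 5 of its 11 probe sets were called in the opposite direction, so its direction is uncertain. Of the 35 calls 18 ended without 1 of the 4 arrays, among them those of Rel (without any 1, 0.0535 to 0.0756), Prkcb (without any 1, 0.0711 to 0.118), Malt1 (without either PreB array or ProB array 2, 0.0598 to 0.0844) and Bcl10 (without PreB array 3 or ProB array 2, 0.0662 and 0.0799). The others named here that did so were Lat (without PreB array 2 or either ProB array, 0.0644 to 0.113), Akt1 (without PreB array 3, 0.0529) and Ighm (0.0583 to 0.0710 without either PreB array or ProB array 1). The values of granulocyte and NK markers and of actin on the PreB arrays move with this comparison too, and their part was not tested.

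Set against ProB, Pax5KO cells had 14 of the 94 genes called, 8 higher and 6 lower, where 5.24% of all genes were called. Without dim genes 16 of 89 pathway genes and 1192 of 9344 genes were called. The split was 6 higher and 8 lower with equal array medians, and 5 higher and 7 lower with quantile normalization. Myc (2.78), Il2ra (at least 2.53), Lax1 (2.48), Pik3r5 (2.43), Pik3cd (2.21) and Rela (1.81) were the most raised. Cd72 (-6.22), Ikzf3 (-4.35, at the floor in Pax5KO cells), Siglecg (-2.74), Cd22 (-2.46), Pik3ap1 (-1.85) and Vpreb3 (-1.39) fell. The Pik3cd rise rested on 1 of 6 probe sets, and with the mean of its probe sets the difference was -0.018. The calls of Cd22 and Il2ra ended without ProB array 2 (limma adjusted p = 0.0733 and 0.0632). Those of Lax1, Vpreb3 and Pik3ap1 ended without 4, 3 and 5 of the 5 arrays in turn (limma adjusted p from 0.0546 to 0.181).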

How the data were processed

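Sorted mouse bone marrow cells were measured on 14 Affymetrix 3' arrays. The deposited table holds 1 log2 signal for each of 45101 probe sets and each array. Per the submitters' processing notes the authors used RMA, GCRMA and limma; which of them made these log2 values is not given in the sources used here. Array medians ran from 2.41 to 2.52 and no further scaling was applied; no detection call was used. The number of arrays limits the precision.

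Groups came from the sample titles. Gene symbols came from the platform annotation, updated through RefSeq (GRCm38.p6), which matched 34741 of the 34945 probe sets with 1 symbol; 932 had several symbols, 9160 none here, and 64 were controls. Each of 18193 genes was represented by its probe set of highest mean. limma 3.58.1 (R 4.3.3, lmFit and eBayes) was fitted once to all 14 arrays with a mean per group, and its p-values (two-sided) underwent Benjamini-Hochberg adjustment across these genes, with calls under 0.05. SE is that of the fit and SD the spread over arrays. The code was checked on simulated data. The members, the gene lists and the tests were chosen with earlier results of these data known. From the wider pathway the rule named the 6 called genes of largest difference in each direction per comparison; other genes of the role lists were named after their values were seen. Lists were described by counts and medians; 1 list of the wider pathway is not reported here on its own. The likeness rule named 3 genes per member.

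Alternatives were another probe set rule, each probe set tested alone, equal array medians, quantile normalization, array weights, only the groups compared, a filter on dim genes, a robust trended prior, a term for high Xist, a replicate block, and leaving out arrays. Deviations of same-numbered Pax5KO and WT engrafted arrays correlated at 0.142, 0.317 and 0.550 across genes. Pax5KO array 1 with WT array 2 gave 0.390, and Pax5KO array 2 with WT array 1 gave 0.206. Arrays numbered 3 with arrays of another number gave -0.491 to -0.241. These values set the arrays numbered 3 apart and do not show a pairing of arrays 1 and 2. The block is therefore given as an alternative alone. In the other comparisons the numbers were not taken to pair the arrays.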

Additional observations from a re-analysis of the deposited data

How the results depend on the processing

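With 2 or 3 arrays per group, the called members kept their direction by their brightest probe set in the alternatives run, while many calls near the threshold did not hold. The fall of Syk in ProB against Ly6D+ CLP did not keep its direction on 1418262_at and 1425797_a_at, with 0.18 and 0.21. On 1457239_at, which differed widely between replicates, it was -0.80 and not called. Counts are given below as members, wider pathway genes and all genes, where they moved by over 1.5 times.

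For Pax5KO against WT engrafted cells the counts were 4, 27 and 1080. Members came to 2 with an Xist term and 2 without both arrays numbered 3, and to 2 or 3 without a single array. The pathway count was 16 with the Xist term and 55 with array weights. All genes came to 697 with only the 6 engrafted arrays, 3065 with array weights, and 676 to 1034 without a single array. For Ly6D+ over Ly6D- CLP (4, 10 and 264), fits to these groups alone called 0, 0 and 1, and array weights 1, 5 and 102. Without a single array the pathway count was 12 to 16, all genes 694 to 1144, and the median of the members 1.92 to 2.56. For ProB over Ly6D+ CLP (3, 15 and 1327), fits to these groups alone called 0, 1 and 3, and array weights 0, 8 and 368. Without a single array, 1 to 3 members and 1060 to 2129 genes were called. The median of the members, -0.24, was 0.064 with equal array medians and -0.023 with quantile normalization, so its direction depends on the scaling. For PreB over ProB (2, 35 and 2100), fits to these groups alone called 1, 7 and 487. Members came to 1 when each probe set was tested, with array weights or without dim genes. Without a single array, 1 or 2 members and 19 to 25 pathway genes were called. For Pax5KO against ProB (3, 14 and 953), fits to these groups alone called 0, 3 and 191. Without a single array, 9 to 12 pathway genes and 565 to 1883 genes were called. The median of the members, 1.14, was 0.78 with equal array medians, 0.95 with quantile normalization, and 0.72 to 1.56 without a single array. With the mean of its probe sets the difference of Pik3cd in this comparison was -0.018. Without dim genes 7 members, 89 pathway genes and 9344 genes were left. Of these, 3, 30 and 1424 were called between Pax5KO and WT engrafted cells, and 4, 12 and 316 in Ly6D+ over Ly6D- CLP. The counts were 3, 17 and 1681 in ProB over Ly6D+ CLP and 1, 44 and 2507 in PreB over ProB. They were 3, 16 and 1192 in Pax5KO against ProB. A fit to a pair of groups has fewer arrays to estimate the spread; the causes of the other shifts were not tested.

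With the replicate number as a block, 3 members, 29 pathway genes and 1108 genes were called between Pax5KO and WT engrafted cells; among the members the block ended the call of Cd79b and changed no other. In PreB over ProB, where the numbers do not show a pairing, the block called 4 members. There it took the PreB numbers from the array descriptions in place of the titles. It joined the lower numbered PreB array with the lower numbered ProB array, and the higher with the higher.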
